A study of Mus musculus with 58 samples.

Results

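Heat shock proteins and their DnaJ co-chaperones were followed in the extensor digitorum longus (EDL), soleus (SOL) and heart (HRT) of mice with and without a C26 tumour, and with and without whole-body vibration training (WBV). Members were chosen by symbol alone: every gene whose symbol starts with Hspa, Hspb, Hspd, Hspe or Hsph and a number, with Hsp90, or with Dnaja, Dnajb or Dnajc and a number, and that has a probe set carrying no other symbol. This gave 65 members of 18820 measured genes, 11 of them with more than 1 probe set, which were averaged. Symbols of 6 further members (Dnajb8, Dnajc1, Dnajc14, Hspa1a, Hspa1b and Hspb2) stand only on probe sets shared with another gene and have no value here, so the classic stress-inducible Hsp70 pair is not among the members. Hsp90ab1 was not analysed here. By place and role, 7 members are small heat shock proteins, 10 are cytosolic HSP70, HSP110 and HSP90 proteins, 25 are cytosolic or nuclear DnaJ proteins, 11 belong to the endoplasmic reticulum (ER), 8 to the mitochondrion, and 4 are DnaJ proteins of other or less certain place.

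The animals were 23 male CD2F1 mice, a BALB/c x DBA/2 cross. Tumour-bearing mice (T) carried C26 adenocarcinoma cells, a transplanted colon carcinoma line, placed under the skin, and control mice (C) had a sham injection of HBSS, so every animal had been anaesthetised and injected. Trained groups (C + WBV and T + WBV) stood on a vibrating platform for 15 min a day at 45 Hz and 1.0 g from day 1, and all mice were killed on day 19. Each muscle gave 6 C, 6 C + WBV, 6 T and 5 T + WBV arrays, and the heart gave 3 arrays of each group, from mice that also gave muscle. The tumour comparison asks what the tumour does to each tissue, and the training comparison asks whether WBV changes a tissue of control or tumour-bearing mice. Because whole muscle was measured, fewer cells of a type and less RNA per cell cannot be told apart in any value.

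Heat shock proteins keep other proteins folded. Small heat shock proteins hold unfolding proteins in a soluble state without using ATP, HSP70 proteins bind and release exposed stretches in an ATP cycle, and DnaJ (HSP40) proteins bring clients to HSP70 and start that cycle. HSP90 finishes the folding of many signalling proteins, and HSP60 with HSP10 forms a folding chamber in the mitochondrial matrix. In striated muscle, several small heat shock proteins bind the Z-disc, desmin or actin. The inducible members are switched on by heat shock factor 1, which binds inverted GAA repeats called heat shock elements, while the ER members answer to factors of the unfolded protein response.

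The promoter sequences of the members that carry such elements are shown next, because the results below separate members by place in the cell and by how they varied between animals. RefSeq promoter windows of GRCm38.p6, which run from 250 bases before to 50 after each transcript start, were matched to 53 of the 65 members, in 69 windows. A heat shock element core, spelled GAANNTTC or TTCNNGAA and searched on both strands, was in 16 of these windows (23.2%), of 14 members, against 15.1% of all 32851 windows. A row of 3 alternating units, spelled GAANNTTCNNGAA or TTCNNGAANNTTC, which overlaps the core by design, was in 6 windows (8.70%) of 4 members, Dnajb6, Hspd1, Hspe1 and Hsph1, against 0.603% of all windows. These 6 windows are not separate sites: the windows of Dnajb6 overlap each other, as do those of Hsph1, and Hspd1 and Hspe1 share a run. In Hsph1 the row lies after the start. An ER stress element, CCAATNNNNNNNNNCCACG on either strand, was in 3 windows (4.35%), those of Dnajc3, Hsp90b1 and Hspa5, against 0.119% of all windows. No spelled motif was found in the windows of Dnajb1, Dnajb9 or Hspb7. A match describes letters in a window and is not a mapped binding site. The stretches that hold the matches are printed from 5′ to 3′ on the strand of the gene, with the motif letters in capitals. They lie before the transcript start at chr5:135887787-135887844 (plus strand) for Hspb1, chr5:29735837-29735879 (plus) for Dnajb6, chr1:55088044-55088091 (minus) for Hspd1, chr2:34772010-34772058 (plus) for Hspa5, chr14:118937812-118937860 (plus) for Dnajc3 and chr10:86705518-86705566 (minus) for Hsp90b1.
Hspb1: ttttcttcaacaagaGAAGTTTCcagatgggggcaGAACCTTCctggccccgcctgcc
Dnajb6: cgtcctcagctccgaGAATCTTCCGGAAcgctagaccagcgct
Hspd1: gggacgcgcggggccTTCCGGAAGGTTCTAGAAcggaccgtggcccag
Hspa5: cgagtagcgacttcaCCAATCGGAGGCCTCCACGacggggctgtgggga
Dnajc3: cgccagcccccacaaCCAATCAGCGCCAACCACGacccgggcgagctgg
Hsp90b1: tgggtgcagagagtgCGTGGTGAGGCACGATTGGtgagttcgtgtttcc
Hspb1 shows separate cores, Hspd1 an uninterrupted run of alternating units, and Hsp90b1 the ER stress element read on the opposite strand. Hspd1 and Hspe1 are neighbours transcribed in opposite directions. The start of the printed Hspd1 window lies 216 bases from that of Hspe1, so the Hspd1 run above is also in the window of Hspe1. A second Hspd1 window, chr1:55088194-55088493, has its start inside Hspe1 and holds no heat shock element core.

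Levels are log2 array intensities, on which 1 unit is a doubling, and a member is called changed where limma's adjusted p, over all 18820 genes, was under 0.01. In untrained mice the tumour left most members uncalled and moved a minority of them in both directions. In T against C of EDL, 10 of 65 members rose and 6 fell, where 10.7% and 11.6% of all genes did (22.4% together). In SOL 7 rose and 2 fell (5.06% and 8.66% of all genes, 13.7% together). In heart 1 rose and 3 fell (2.70% and 3.04% of all genes, 5.74% together). The share of members called was therefore close to that of all genes in each tissue, and the median change of the members (0.01 for EDL, −0.06 for SOL, −0.10 for heart) lay near that of all genes (−0.03, −0.01 and 0.00). At an unadjusted p under 0.05 there were 32, 26 and 23 of the 65 members, beside 7277, 6083 and 4979 of all 18820 genes. None of the 10 cytosolic HSP70, HSP110 and HSP90 proteins was called in any tissue.

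No member was called in all 3 tissues, and 8 of the 10 called in a pair of tissues were called in both leg muscles. There, 6 members rose (Hspb1, Hspb7, Dnajb2, Dnajb9, Dnajb12 and Dnajc2) and 2 fell (Dnajc12 and Dnajc19). Hspb3 fell in EDL and heart, and Dnajc3 rose in SOL and heart. Calls in EDL alone went up for Dnajb4, Dnajb6, Dnajc13 and Dnaja2 and down for Dnajc15, Dnajc4 and Dnajc24, while Dnajc28 and Hspb6 were called lower in heart alone. The remaining 46 members were called in no tissue. T and C arrays did not overlap for 5 higher and 4 lower members in EDL (15.4% of all genes did not overlap), 6 and 2 in SOL (10.6%), and 9 and 17 in heart (32.0%, with 3 arrays a group).

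**Figure D1:**
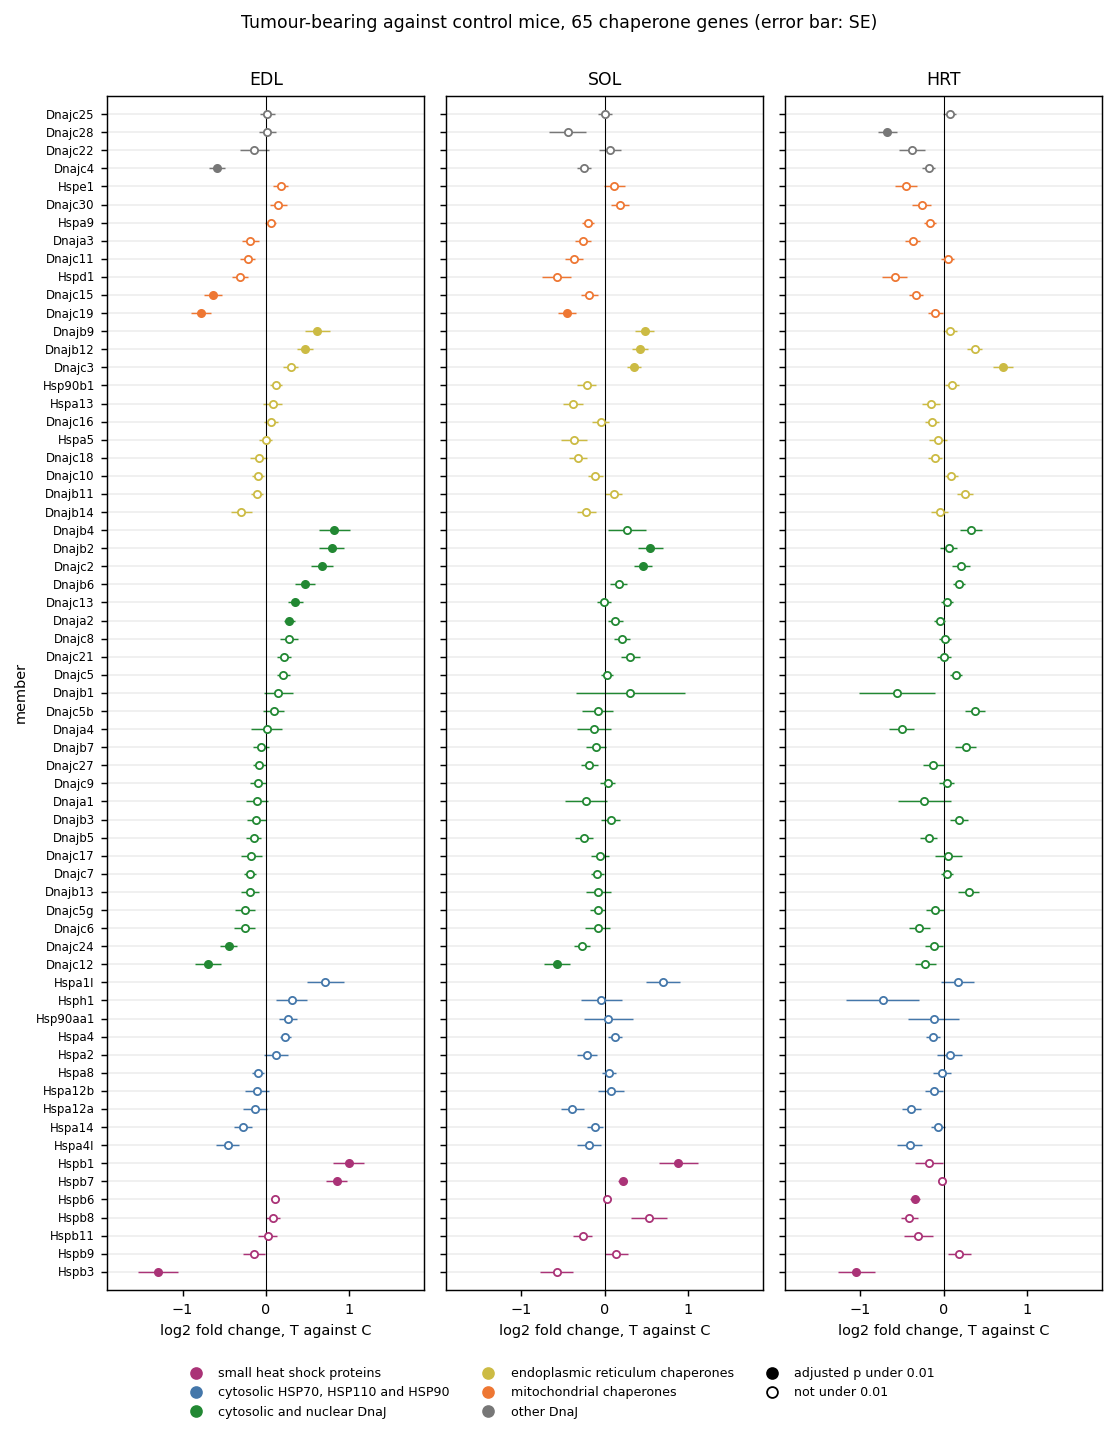
Change of each of the 65 members in T against C (log2, x axis) by class (colour) and tissue, with bars for the SE and filled points for members called at adjusted p under 0.01. Called points lie on both sides of 0 in EDL, and no cytosolic HSP70, HSP110 or HSP90 protein is filled in any tissue.

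Small heat shock proteins held the called members of widest change, and they did not move together. Hspb1 (HSP25, the actin-binding small heat shock protein) and Hspb7 (a cardiovascular and muscle form that binds filamin C) rose in both muscles, and Hspb3 (a muscle form that pairs with Hspb2) fell. In EDL, Hspb1 ran from 6.77 to 7.09 in C (median 7.01) and from 7.11 to 8.66 in T (median 8.06). The highest C array thus lay just below the lowest T array, and the change was 0.99 ± 0.19 (SE, n = 6 and 6, a fold of 1.99, limma adjusted p = 0.000217). In SOL, Hspb1 ran from 7.25 to 7.79 in C (median 7.51) and from 7.90 to 8.86 in T (median 8.33), again without overlap, a change of 0.88 ± 0.24 (limma adjusted p = 0.00788). The SOL call was lost when any of 9 C or T arrays was left out or with the replicate number as a block, with adjusted p up to 0.0256. In heart, Hspb1 was at 7.12, 7.66 and 7.00 in C and at 7.18, 6.98 and 7.09 in T, so that the groups overlapped (−0.18 ± 0.16, limma adjusted p = 0.555). Hspb1 is the mean of 3 probe sets, and the dimmest, near 3 in all tissues, hardly moved, by 0.10 in EDL and 0.12 in SOL. Its 2 bright probe sets alone gave 1.43 and 1.44 in EDL and 1.25 and 1.27 in SOL, so the averaged change of Hspb1 is the smaller figure.

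In EDL, Hspb7 ran from 10.86 to 11.39 in C (median 11.21) and from 11.48 to 12.29 in T (median 12.09), with every T array above every C array (0.85 ± 0.13, a fold of 1.80, limma adjusted p = 1.89e-05). In SOL, where Hspb7 began higher, it ran from 12.16 to 12.25 in C and from 12.34 to 12.53 in T. Those SOL groups did not overlap either, but the change was only 0.21 ± 0.06 (limma adjusted p = 0.00611), and the call was lost without any of 7 C or T arrays, with the replicate number as a block, and under 4 other alternatives (highest adjusted p = 0.0767). In heart Hspb7 was at 12.24, 12.28 and 12.25 in C and 12.24, 12.29 and 12.20 in T, levels that coincide (−0.02 ± 0.05, limma adjusted p = 0.873). The tumour effect on Hspb7 differed between tissues by the test of the difference itself: SOL minus EDL was −0.63 ± 0.12 (limma adjusted p = 0.00057) and heart minus EDL was −0.87 ± 0.15 (adjusted p = 9.6e-05). Across all genes 2.02% and 3.50% were called in these differences. The median T level of Hspb7 in EDL, 12.09, lay just below the C ranges of SOL and heart.

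Hspb3 gave the widest fall among the members in both EDL and heart. In EDL it ran from 7.87 to 8.26 in C (median 7.93) and from 6.08 to 7.51 in T (median 6.66), with no overlap and a wide scatter within T (−1.30 ± 0.24, limma adjusted p = 0.000153). In heart, Hspb3 was at 6.08, 6.50 and 6.14 in C and at 5.08, 5.31 and 5.17 in T, a change of −1.05 ± 0.22 (limma adjusted p = 0.00683). Every T heart lay below every C heart, and the call was lost when any of the 6 C or T hearts or C + WBV replicate 3 was left out (highest adjusted p over all alternatives 0.0327). In SOL, Hspb3 ran from 7.42 to 8.00 in C and from 6.78 to 7.50 in T, overlapping at the edge, with −0.58 ± 0.20 (limma adjusted p = 0.0364). Hspb3 is thus the one small heat shock protein with negative values in all 3 tissues, of which those of EDL and heart were called.

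Hspb6 (HSP20, an abundant small heat shock protein of striated and smooth muscle) was called lower in heart only. The C hearts read 12.57, 12.59 and 12.61 and the T hearts 12.26, 12.20 and 12.27, a gap wider than the spread in either group (−0.35 ± 0.06, limma adjusted p = 0.00321, lost without any of the 3 C hearts or T replicate 2 or 3 and in 2 other alternatives). In EDL the value for Hspb6 was 0.11 ± 0.05 (adjusted p = 0.109) and in SOL 0.03 ± 0.05 (adjusted p = 0.764), and the heart effect differed from that of EDL by −0.46 ± 0.07 (adjusted p = 1.3e-05) and from that of SOL by −0.38 ± 0.07 (adjusted p = 0.00035, against 1.68% of all genes called). Levels of Hspb6 are among the highest of the table, whose top is 13.55. Hspb8 (HSP22, the partner of the co-chaperone Bag3 in clearing damaged sarcomere proteins), named after its values were seen, missed the threshold everywhere: 0.09 in EDL (adjusted p = 0.491), 0.53 ± 0.22 in SOL (adjusted p = 0.0811) and −0.41 ± 0.10 in heart (adjusted p = 0.0172). Its heart values were 10.61, 10.72 and 10.57 in C and 10.37, 10.09 and 10.21 in T, which do not overlap.

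**Figure D2:**
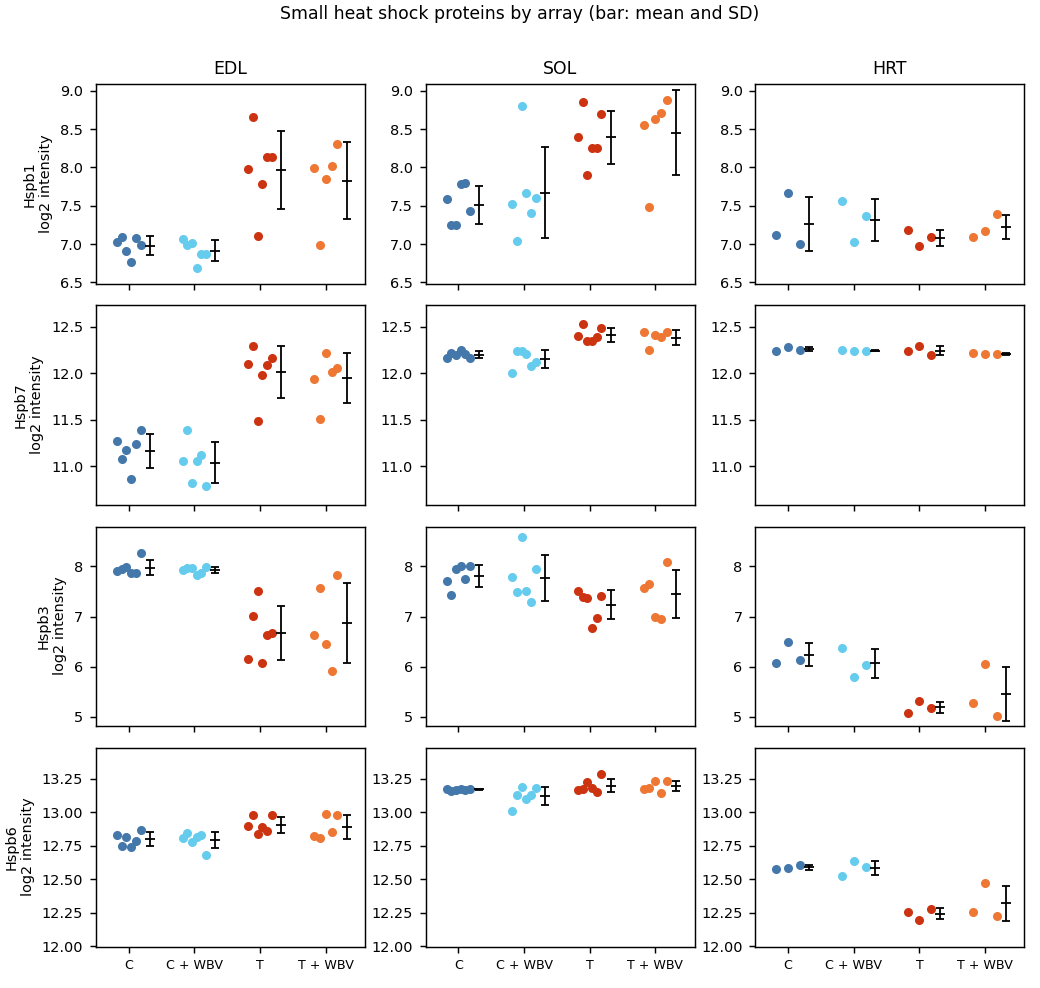
Levels of small heat shock proteins (log2 intensity, y axis) on each array, by group and tissue, with bars for the mean and SD. In EDL Hspb7 runs from 10.86 to 11.39 in C and from 11.48 to 12.29 in T, and in heart its groups coincide, whereas Hspb3 is lower in T of EDL and heart and Hspb6 in T of heart.

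The cytosolic HSP70, HSP110 and HSP90 proteins gave no call in T against C. An unadjusted p under 0.05 was found for 5 of 10 (EDL), 2 (SOL) and 2 (heart), and for 7277, 6083 and 4979 of all 18820 genes. Hspa8 (the constitutive HSP70) gave −0.09 for EDL, 0.05 for SOL and −0.02 for heart. Hsp90aa1 (the inducible cytosolic HSP90) gave 0.26 ± 0.11 in EDL (adjusted p = 0.0757), 0.04 ± 0.29 in SOL (adjusted p = 0.953) and −0.12 ± 0.30 in heart (adjusted p = 0.859). The standard errors of Hsp90aa1 in SOL and heart are several times that in EDL, and the arrays behind them are described below. Hspa4 in EDL came nearest to a call (0.23 ± 0.07, limma adjusted p = 0.0113), with 0.13 in SOL and −0.13 in heart. Hspa1l, a testis-rich HSP70 whose gene neighbours Hspa1a and Hspa1b, missed the threshold in both muscles. It ran from 4.59 to 4.92 in C and from 4.75 to 6.13 in T of EDL (0.71 ± 0.22, limma adjusted p = 0.0144), and from 5.40 to 6.31 in C and from 6.15 to 6.74 in T of SOL (0.69 ± 0.21, adjusted p = 0.0153). Its probe sets were not equal: tested alone, 1 of the 2 passed in each muscle (EDL 1.01, adjusted p = 0.0005898, and SOL 0.72, adjusted p = 0.006649) and the other did not (EDL 0.41, adjusted p = 0.2537, and SOL 0.67, adjusted p = 0.04849). Because the HSP70 genes of this cluster are close in sequence, a probe of Hspa1l may also take up RNA of its neighbours, and its values are uncertain in that respect. Hspa4l, an HSP110 form, gave −0.46 ± 0.14 in EDL (adjusted p = 0.0136), −0.19 in SOL and −0.41 in heart.

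Of the 25 cytosolic and nuclear DnaJ proteins, 6 rose and 2 fell in EDL (10.7% and 11.6% of all genes), 2 rose and 1 fell in SOL (5.06% and 8.66%), and none was called in heart. Dnajb2 (a DnaJ protein with ubiquitin-binding motifs that passes clients to the proteasome) ran from 6.23 to 6.56 in C (median 6.39) and from 6.61 to 7.46 in T (median 7.34) of EDL. All T arrays were above all C arrays (0.79 ± 0.15, limma adjusted p = 0.000189). In SOL it ran from 6.25 to 6.77 in C and from 6.84 to 7.31 in T (0.54 ± 0.15, adjusted p = 0.0097), a call at the edge of the threshold that was lost in 19 of 36 alternatives. In heart Dnajb2 gave 0.06 (adjusted p = 0.794). Dnajc2 (zuotin, the DnaJ protein at the ribosome's exit) ran from 6.16 to 6.51 in C and from 6.57 to 7.66 in T of EDL (0.67 ± 0.13, limma adjusted p = 0.000205). It ran from 6.15 to 6.49 in C and from 6.54 to 7.15 in T of SOL (0.45 ± 0.11, adjusted p = 0.00364, lost without C replicate 5 or T replicate 1 or 2). The groups of Dnajc2 were apart in both muscles, by less than 0.1 at their closest, and heart gave 0.21 (adjusted p = 0.253).

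Dnajb4 and Dnajb6, a relative of Dnajb1 and a Z-disc DnaJ protein whose mutations cause a muscular dystrophy in humans, were called in EDL alone. Dnajb4 ran from 7.54 to 8.05 in C (median 7.75) and from 8.00 to 8.84 in T (median 8.78) of EDL, overlapping at 1 end (0.82 ± 0.18, limma adjusted p = 0.000925). In SOL it gave 0.26 ± 0.23 (adjusted p = 0.479) and in heart 0.32 ± 0.13 (adjusted p = 0.119). Dnajb6, whose promoter stretch is printed above, ran from 8.44 to 9.00 in C and from 8.74 to 9.51 in T of EDL (0.47 ± 0.12, adjusted p = 0.00318), and this call was lost without EDL C replicate 3, C replicate 6, T replicate 1 or mice 19 and 22, and with its highest probe set alone. Dnajc13 (an endosomal DnaJ protein, 0.35 ± 0.09, adjusted p = 0.00366, lost without C replicate 6 or T replicate 1 or 5 and with its highest probe set alone) and Dnaja2 (a main HSP70 partner of the cytosol, 0.28 ± 0.07, adjusted p = 0.00209, lost in the fit on C and T alone) also rose in EDL, and Dnajc24, which acts in diphthamide synthesis, fell by 0.45 ± 0.10 (adjusted p = 0.0012). Dnajb6, Dnajc13 and Dnajc24 were named after their values were seen.

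Dnajc12, the co-chaperone of the aromatic amino acid hydroxylases, was the cytosolic DnaJ protein that fell in both muscles. It ran from 6.49 to 7.00 in C (median 6.78) and from 5.81 to 6.57 in T (median 6.01) of EDL (−0.70 ± 0.15, limma adjusted p = 0.000958). In SOL it ran from 5.74 to 6.22 in C (median 5.86) and from 5.07 to 5.61 in T (median 5.29), without overlap (−0.57 ± 0.15, adjusted p = 0.00701). In EDL the highest T array overlapped the lowest C array, and in heart Dnajc12 gave −0.22 (adjusted p = 0.294). The SOL call was lost without any of 9 C or T arrays and under 2 other scalings (highest adjusted p over all alternatives 0.0261), and the EDL call was kept in all 36 alternatives.

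ER members that were called all rose: 2 of 11 in EDL, 3 in SOL and 1 in heart, where 10.7%, 5.06% and 2.70% of all genes rose. The central ER chaperones were not among them. Hspa5 (BiP, the HSP70 of the ER lumen) gave 0.00 in EDL (adjusted p = 0.976), −0.37 ± 0.16 in SOL (adjusted p = 0.0995) and −0.07 in heart (adjusted p = 0.754), and Hsp90b1 (GRP94, the ER HSP90) gave 0.12, −0.22 and 0.10, although both carry the ER stress element shown above. Besides the 3 that rose, every ER member but Dnajb11 (0.11) had a negative value in SOL. Among them were Hspa13 (−0.38 ± 0.12, limma adjusted p = 0.0222) and Dnajc18 (−0.32 ± 0.11, adjusted p = 0.0307). The ER members called higher are DnaJ proteins. Dnajb9 (ERdj4, a lumenal partner of BiP that leads misfolded proteins to degradation) ran from 8.47 to 8.75 in C (median 8.58) and from 8.69 to 9.55 in T (median 9.29) of EDL (0.62 ± 0.15, limma adjusted p = 0.0021). In SOL it ran from 7.94 to 8.52 in C and from 8.44 to 9.09 in T (0.48 ± 0.12, adjusted p = 0.00387, lost without C replicate 3 or 6, T replicate 1 or 2 or mice 19 and 22, highest adjusted p 0.0138). Both pairs of groups overlapped at 1 end, and heart gave 0.07 (adjusted p = 0.66).

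Dnajb12, a DnaJ protein of the ER membrane that faces the cytosol, rose by a like amount in both muscles. It ran from 8.89 to 9.15 in C and from 9.21 to 9.87 in T of EDL (0.47 ± 0.09, limma adjusted p = 0.000371), and from 8.49 to 8.76 in C and from 8.70 to 9.24 in T of SOL (0.42 ± 0.10, adjusted p = 0.00222). In heart it read 8.15, 8.16 and 8.09 in C and 8.53, 8.53 and 8.46 in T, groups that stand apart although the adjusted p was 0.0164 (0.37 ± 0.09). Dnajb12 was called in every alternative run in both muscles.

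Dnajc3 (p58IPK, an ER-lumen partner of BiP that also restrains the kinase PERK) was the only member called higher in heart. The C hearts read 8.07, 8.32 and 8.09 and the T hearts 8.94, 8.81 and 8.87, every T heart above every C heart (0.71 ± 0.12, limma adjusted p = 0.0019, lost without C replicate 1 or 3, highest adjusted p 0.0109). In SOL it ran from 7.52 to 7.92 in C and from 7.94 to 8.27 in T (0.35 ± 0.09, adjusted p = 0.00522, lost without any of 5 C or T arrays, with the replicate number as a block or in the fit on C and T alone). In EDL it ran from 7.68 to 7.96 in C and from 7.90 to 8.38 in T (0.30 ± 0.09, adjusted p = 0.0103), just short of the threshold. Both probe sets of Dnajc3 hold identical values and count as 1 measurement. Dnajc3 was higher in T than in C by 0.30 to 0.71 in the 3 tissues, and the test of the difference between tissues did not call it.

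**Figure D3:**
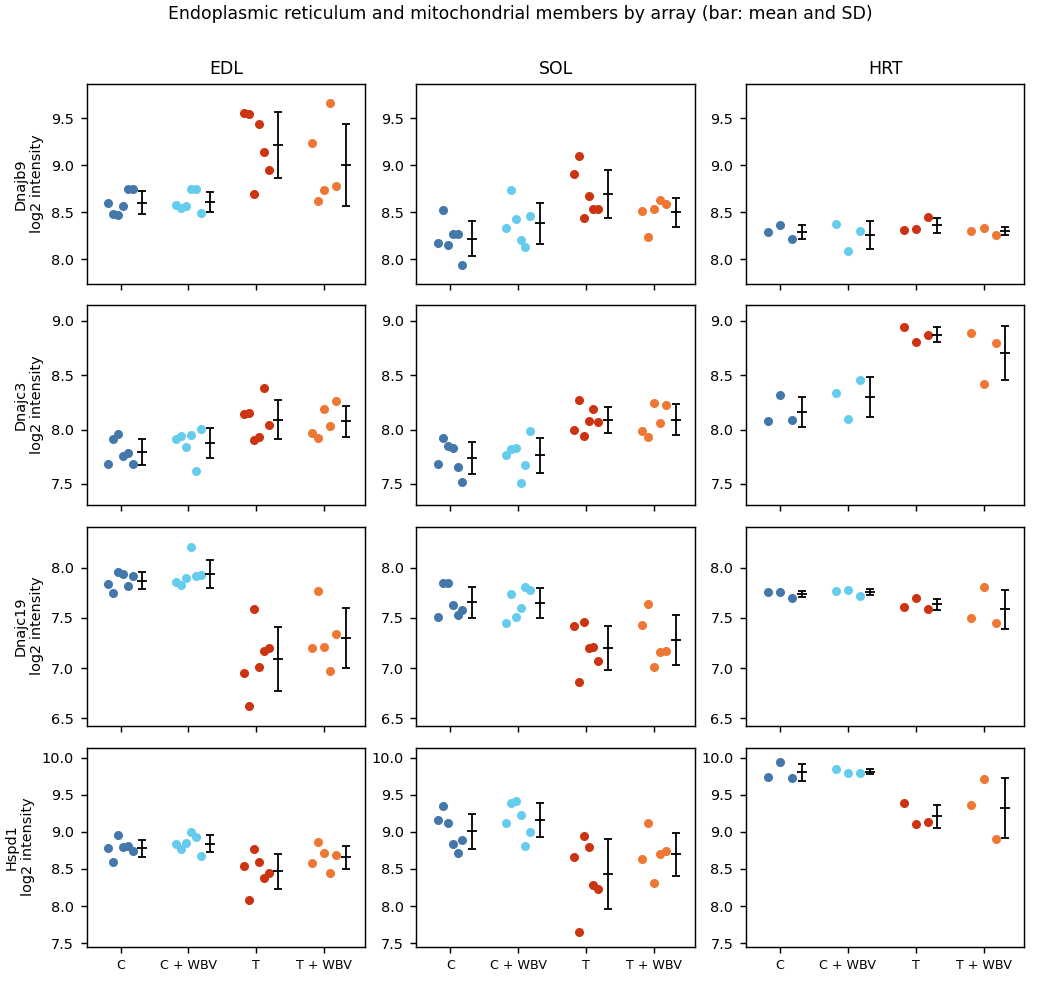
Levels (log2 intensity, y axis) of 2 ER members (Dnajb9 and Dnajc3) and 2 mitochondrial members (Dnajc19 and Hspd1) on each array, by group and tissue, with bars for the mean and SD. The ER members lie higher in T than in C where called, Dnajc19 lies lower in EDL and SOL, and the T hearts of Hspd1 (9.39, 9.10 and 9.14) lie below all C hearts.

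Mitochondrial members that were called all fell: 2 of 8 in EDL (11.6% of all genes fell) and 1 in SOL (8.66%). Uncalled positive values were those of Dnajc30 (0.15 in EDL and 0.18 in SOL), Hspe1 (0.18 and 0.11) and, in EDL, Hspa9 (0.05). No mitochondrial member was called in heart (3.04%), where 7 of 8 were negative, with a median of −0.30, and 49.2% of all genes were negative. Dnajc19 (TIM14, the DnaJ protein of the inner-membrane import motor) ran from 7.74 to 7.96 in C (median 7.88) and from 6.63 to 7.59 in T (median 7.09) of EDL, without overlap (−0.78 ± 0.12, limma adjusted p = 3.56e-05). In SOL it ran from 7.51 to 7.85 in C and from 6.86 to 7.46 in T (−0.45 ± 0.11, adjusted p = 0.00399, lost without C replicate 2 or 3, T replicate 2 or 6 or mice 19 and 22, with centred arrays and with the replicate number as a block). In heart Dnajc19 read 7.76, 7.75 and 7.70 in C and 7.61, 7.70 and 7.59 in T (−0.10 ± 0.09, adjusted p = 0.532). The heart effect differed from the EDL effect by 0.68 ± 0.18 (adjusted p = 0.0094), a call lost in 20 of 27 alternatives. Dnajc15 (methylation-controlled J protein, a relative of TIM14 at the same motor), named after its values were seen, ran from 8.38 to 8.59 in C and from 7.69 to 8.20 in T of EDL (−0.64 ± 0.10, adjusted p = 4.44e-05), against −0.19 in SOL (adjusted p = 0.224) and −0.33 ± 0.09 in heart (adjusted p = 0.02).

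Hspd1 (HSP60) and Hspe1 (HSP10) form 1 folding chamber and share a promoter region. Hspd1 ran from 8.59 to 8.96 in C and from 8.08 to 8.77 in T of EDL (−0.31 ± 0.09, limma adjusted p = 0.0122) and from 8.71 to 9.34 in C and from 7.65 to 8.94 in T of SOL (−0.58 ± 0.17, adjusted p = 0.0158). In heart Hspd1 read 9.74, 9.93 and 9.73 in C and 9.39, 9.10 and 9.14 in T (−0.59 ± 0.15, adjusted p = 0.0172). It thus missed the threshold narrowly in each tissue, while the brighter of its 2 probe sets, tested alone, passed in all 3, with −0.34 (adjusted p = 0.002524), −0.53 (adjusted p = 0.009408) and −0.53 (adjusted p = 0.007658). Hspe1 gave 0.18 ± 0.09 in EDL (adjusted p = 0.157), 0.11 in SOL (adjusted p = 0.614) and −0.45 ± 0.13 in heart (adjusted p = 0.0365). On each array Hspd1 minus Hspe1 was taken, as a description of a pair chosen after its values were seen. The mean of this difference in T minus that in C was −0.49 for EDL, −0.69 for SOL and −0.14 for heart, and 5 (EDL) and 4 (SOL) of the 6 T arrays lay below the lowest C array.

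Of the 4 DnaJ proteins of other or less certain place, Dnajc4 fell in EDL and Dnajc28 in heart. Dnajc4 ran from 7.99 to 8.38 in C (median 8.19) and from 7.41 to 7.98 in T (median 7.56) of EDL, without overlap by a margin of less than 0.1 (−0.59 ± 0.09, limma adjusted p = 3.95e-05). In SOL it gave −0.25 (adjusted p = 0.0403) and in heart −0.18 (adjusted p = 0.152). Dnajc28 read 7.83, 7.97 and 7.81 in C hearts and 7.42, 7.06 and 7.10 in T hearts, so the groups were apart (−0.68 ± 0.11, adjusted p = 0.00197), and the call was lost without C replicate 2, T replicate 2 or 3 or mice 19 and 22 and with all arrays in 1 fit. In EDL Dnajc28 gave 0.01 (adjusted p = 0.94) and in SOL −0.45 ± 0.22 (adjusted p = 0.162).

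Trained mice gave a second set of arrays for the tumour comparison, T + WBV against C + WBV, which shares no array with T against C. In EDL 5 members rose and 5 fell (5.27% and 6.60% of all genes, 11.9% together). SOL gave no call by limma at an adjusted p under 0.01, where 1.94% of all genes rose and 1.66% fell (3.61% together). In SOL, 17 members had an unadjusted p under 0.05, beside 4232 of all 18820 genes. Heart gave 0 higher and 1 lower (1.01% and 0.478% of all genes, 1.49% together). The groups of trained mice did not overlap for 3 higher and 3 lower members in EDL (8.51% of all genes did not overlap), 1 and 1 in SOL (4.18%), and 2 and 21 in heart (21.7%, with 3 arrays a group). The EDL members that rose were Hspb1 (0.92 ± 0.20, limma adjusted p = 0.00188), Hspb7 (0.91 ± 0.13, adjusted p = 7.02e-05), Dnajb2 (0.69 ± 0.16, adjusted p = 0.00256), Dnajc2 (0.63 ± 0.13, adjusted p = 0.00159) and Dnajb12 (0.45 ± 0.10, adjusted p = 0.0021). Those that fell were Hspb3 (−1.05 ± 0.25, adjusted p = 0.00409), Dnajc19 (−0.64 ± 0.13, adjusted p = 0.00121), Dnajc4 (−0.44 ± 0.10, adjusted p = 0.00267), Dnajc15 (−0.42 ± 0.11, adjusted p = 0.00654) and Dnajc11, of the complex that shapes mitochondrial cristae (−0.36 ± 0.09, adjusted p = 0.0054). Of these 10, 9 were also called in the untrained mice in the same direction, as were 2061 of the 2235 genes called in trained EDL. The members are thus no exception in this. Without EDL T + WBV replicate 4 the count of called members was 6.

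Single trained animals show how the groups lay. In EDL, Hspb7 ran from 10.79 to 11.39 in C + WBV and read 11.94, 11.51, 12.21, 12.02 and 12.06 in T + WBV replicates 1 to 5, all above the controls. Hspb1 ran from 6.68 to 7.06 in C + WBV and read 7.99, 6.99, 7.85, 8.01 and 8.31, with replicate 2 inside the control range. Hspb3 ran from 7.83 to 8.00 in C + WBV and read 6.63, 7.56, 6.45, 5.92 and 7.83, with replicate 5 at the control edge and replicate 2 next to it. T + WBV replicate 2 was also the array nearest the controls for Dnajc19 (7.77, against 7.20, 7.21, 6.97 and 7.34). This mouse kept 100.9% of its starting body mass.

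All 16 EDL members, all 9 SOL members and all 4 heart members called in untrained mice had the same sign in trained mice. Over all genes called in T against C, 99.5%, 99.0% and 98.5% kept their sign, so the members are no exception to the table. Over every member, called or not, 53 of 65 had the same sign in EDL (81.5%, against 75.9% of all genes), 55 in SOL (84.6% against 71.2%) and 52 in heart (80.0% against 67.5%). Sizes were smaller for some called members in trained SOL: Dnajb9 gave 0.12 there (adjusted p = 0.63) and Dnajb2 0.29 (adjusted p = 0.276), whereas Hspb1 gave 0.78 ± 0.25 (adjusted p = 0.0452), Hspb7 0.23 ± 0.06 (adjusted p = 0.0118) and Dnajc12 −0.65 ± 0.16 (adjusted p = 0.0108). None of these differences between untrained and trained mice passed as an interaction. In heart, Dnajc3 gave 0.41 ± 0.12 (adjusted p = 0.0599) and Hspb3 −0.62 ± 0.22 (adjusted p = 0.119), each with T + WBV replicate 2 (Dnajc3 at 8.42, Hspb3 at 6.06) closest to the controls.

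**Figure D4:**
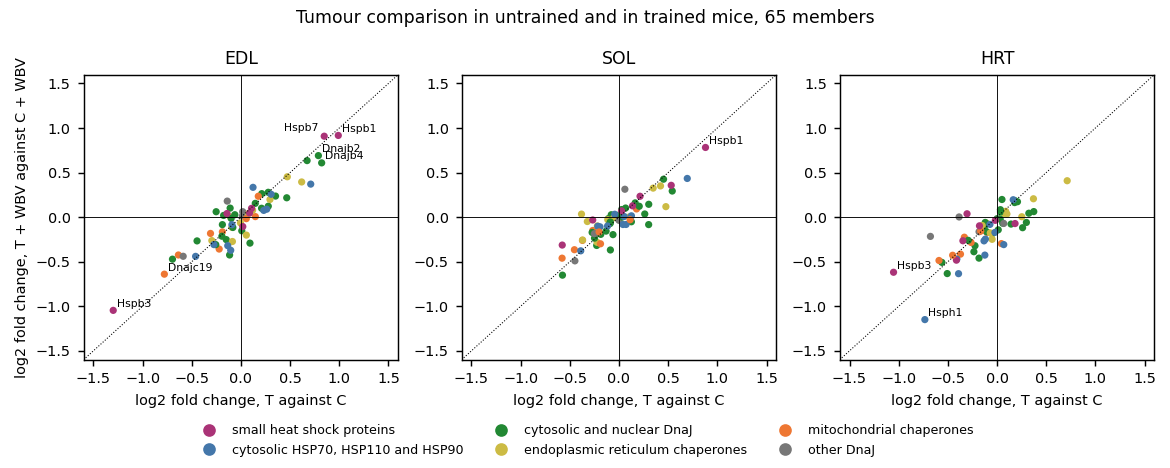
Tumour effect on each member in untrained mice (T against C, x axis, log2) and in trained mice (T + WBV against C + WBV, y axis, log2), by tissue, coloured by class, with a dotted line where both are equal. In EDL the members called in untrained mice lie near the diagonal, from Hspb3 at −1.30 and −1.05 to Hspb1 at 0.99 and 0.92.

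Hspa12a, a distant and atypical HSP70 relative, was the heart member called in trained mice. It read 5.53, 5.42 and 5.43 in C + WBV and 4.79, 4.96 and 4.74 in T + WBV hearts, a change of −0.63 ± 0.11 (limma adjusted p = 0.0058), and 5.41, 5.56 and 5.27 in C and 5.05, 4.95 and 5.07 in T hearts (−0.39, adjusted p = 0.0333). The groups were apart in both comparisons, and the trained call was lost without any of 7 hearts (C + WBV replicates 1, 2 and 3, T + WBV replicates 1 and 3, C replicate 1 or T replicate 3). The count of heart members called was 0 in each of those cases and 11 without T + WBV replicate 2. Against untrained controls (T + WBV against C, which shares its C arrays with T against C), 6 EDL members rose and 4 fell (5.37% and 5.69% of all genes, 11.1% together). Dnajc12 alone fell in SOL (−0.64 ± 0.16, adjusted p = 0.0098, where 2.01% of all genes rose and 2.66% fell, 4.67% together), and Hspa12a alone fell in heart (−0.59 ± 0.11, adjusted p = 0.0095, where 0.999% rose and 0.473% fell, 1.47% together). Both calls were at the edge of the threshold: that of Dnajc12 was lost in 26 of 36 alternatives (highest adjusted p 0.0396) and that of Hspa12a in 16 of 24 (highest 0.0836).

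Training itself gave no called member. In T + WBV against T, in C + WBV against C and in the interaction of tumour and training, 0 of 18820 genes passed in any tissue by limma at an adjusted p under 0.01 (0% called). At an unadjusted p under 0.05 the tumour-bearing comparison held 0, 2 and 3 members in EDL, SOL and heart (902, 939 and 1407 of all genes), the control comparison 1, 1 and 3 (627, 598 and 625), and the interaction 2, 2 and 4 (596, 838 and 1105). The member of smallest p in tumour-bearing heart was Dnajc28, which read 7.42, 7.06 and 7.10 in T and 7.69, 7.65 and 7.28 in T + WBV (0.35 ± 0.11, limma adjusted p = 0.517). In tumour-bearing SOL it was Hspa12a (0.34 ± 0.15, adjusted p = 0.928) and in EDL Dnajc5g (0.25 ± 0.12, adjusted p = 0.868). In control mice the smallest p belonged to Dnajb3 in EDL (0.31 ± 0.12), to Hspa12a in SOL (0.33 ± 0.14) and to Dnajc5b, a cysteine-string protein, in heart (0.34 ± 0.12). The interaction was smallest in p for Dnajc5b in EDL (−0.38 ± 0.18), Hspa13 in SOL (0.42 ± 0.17, adjusted p = 0.986) and Dnajc11 in heart (−0.34 ± 0.11, adjusted p = 0.785). All of these lie far from the threshold, and in EDL of tumour-bearing mice the members ranged only from −0.35 to 0.25.

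Levels also differed between the tissues of untrained control mice. Against EDL, SOL had 11 members higher and 4 lower (7.49% and 6.44% of all genes, 13.9% together), and heart had 24 higher and 11 lower (19.0% and 12.9%, 31.9% together). Against SOL, heart had 19 higher and 9 lower (15.4% and 9.59%, 25.0% together). In SOL, the slow postural muscle, Dnajb4 ran from 9.09 to 9.68 against 7.54 to 8.05 in EDL (1.67 ± 0.18, limma adjusted p = 1.5e-10), and Hspa2, an HSP70 form with a known role in testis, ran from 5.47 to 6.18 against 4.28 to 4.81 (1.23 ± 0.12, adjusted p = 2.1e-12). Hspb7 in C ran from 12.16 to 12.25 in SOL against 10.86 to 11.39 in EDL (1.03 ± 0.08, adjusted p = 1.4e-14). Hspa1l (1.01), Dnaja4 (0.92) and Hspb6 (0.37) were also higher in SOL. Dnajc12 was lower there (−0.86 ± 0.14, adjusted p = 1.3e-06), as were Dnajb12 (−0.42) and Dnaja2 (−0.40). Of the members that rose with the tumour in EDL, Hspb7 and Dnajb4 were thus higher in SOL than in EDL of C, and Dnajb12 and Dnaja2 lower.

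Of the 11 ER members, 6 were higher in heart than in each muscle, as were 16 of the 65 members and 13.0% of all genes. Hsp90b1 ran from 10.48 to 10.63 in heart, from 9.15 to 9.42 in EDL and from 9.13 to 9.96 in SOL (heart against EDL 1.28 ± 0.10, limma adjusted p = 3.4e-16). Hspa4l ran from 7.89 to 8.55 in heart, from 5.96 to 6.47 in EDL and from 5.62 to 6.46 in SOL (heart against EDL 1.96 ± 0.16, adjusted p = 1.8e-15), and EDL and SOL overlap in it. Hsp90aa1 (1.54) and Hspd1 (1.01) were higher in heart than in EDL too. Hspb3 (−1.72 ± 0.25, adjusted p = 5.8e-08) and Dnajc27, a small GTPase with a J domain (−1.70 ± 0.10, adjusted p = 3.3e-21), were lower in heart. Dnajc27 ran from 5.38 to 5.74 in heart, against 7.25 to 7.37 in EDL and 6.95 to 7.27 in SOL. Of the members with lower heart levels, Hspb3 is also one that fell with the tumour.

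The stress-inducible members varied widely between animals of 1 group. Dnajb1 (HSP40, the best known inducible DnaJ protein) gave, in T against C, 0.15 ± 0.17 for EDL, 0.30 ± 0.65 for SOL and −0.56 ± 0.46 for heart (adjusted p = 0.596, 0.82 and 0.497). Its within-group SD of 1.28 in SOL was at percentile 99.9 of all genes (the median gene had 0.212), and that of 0.729 in heart at percentile 99.8 (median 0.157). In SOL, Dnajb1 read 5.91, 5.46, 10.99, 5.30, 6.00 and 6.16 in C + WBV and 6.29, 5.79, 6.08, 5.86 and 8.75 in T + WBV. A single array of each group, those of mouse 22 and mouse 21, was thus far above the rest. In heart Dnajb1 was highest in mouse 19 (C, 8.41), mouse 22 (C + WBV, 7.19) and mouse 9 (C + WBV, 6.74), and no other heart exceeded 6.46. All 3 are hearts of control mice, and the negative heart value of Dnajb1 turned to 0.19 when the heart of mouse 19 was left out. Hsph1 gave the widest heart value of any member in trained mice, −1.15 ± 0.44 (limma adjusted p = 0.142), with mice 22 and 9 among its 3 C + WBV hearts.

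Mice 19 and 22 were high in every tissue sampled. In EDL they held the top ranks for Dnajb1 (6.62 and 6.24, the others at most 6.14) and for Dnaja1, the farnesylated main DnaJ partner of HSP70, named after its values were seen (7.64 and 7.42, the others at most 7.28). In heart they held the top ranks for Dnajb1, for Hsph1 (HSP110, the exchange factor of HSP70, 9.29 and 9.13, with mouse 9 at 8.65 and the others at most 7.68), for Hsp90aa1 (10.92 and 10.82) and for Dnaja1 (8.47 and 8.37). In SOL mouse 22 was highest for Dnajb1, Hsph1 (9.11), Hsp90aa1 (11.37), Dnaja1 (8.96), Hspb8 (11.35) and Dnaja4 (10.20). It also read 8.80 for Hspb1 and 10.44 for Hspe1 there. In that array 14 of 65 members (21.5%) lay more than 0.5 above the median of the other mice of its group, against 4.76% of all genes, and in the heart of mouse 19 there were 8 (12.3%, against 1.69%). In SOL of mouse 21 there were 8 (12.3%, against 2.58%). EDL of mouse 22 had only 3 (4.62%, against 1.46%), and the heart of mouse 9 had 0 (1.96% of all genes). These arrays were picked after members were seen to stand out on them, so the counts describe the arrays and test nothing.

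The inducible members shared this rise with the immediate early genes (such as Fos and Egr1, which respond within minutes to many stimuli) in some tissues and not in others. Their summed level was highest in the SOL of mouse 22 (13.96, rank 1 of 23) and next in that of mouse 21 (13.21, rank 2). It was unremarkable in the hearts of mouse 19 (11.74, rank 5 of 12) and mouse 22 (11.40, rank 10), where Dnajb1 was highest. The part of tissue handling, of the moment of killing or of training in these arrays was not tested. Without mice 19 and 22, T against C kept its counts of called members within 1.5 times in EDL and SOL and went from 4 to 1 in heart.

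**Figure D5:**
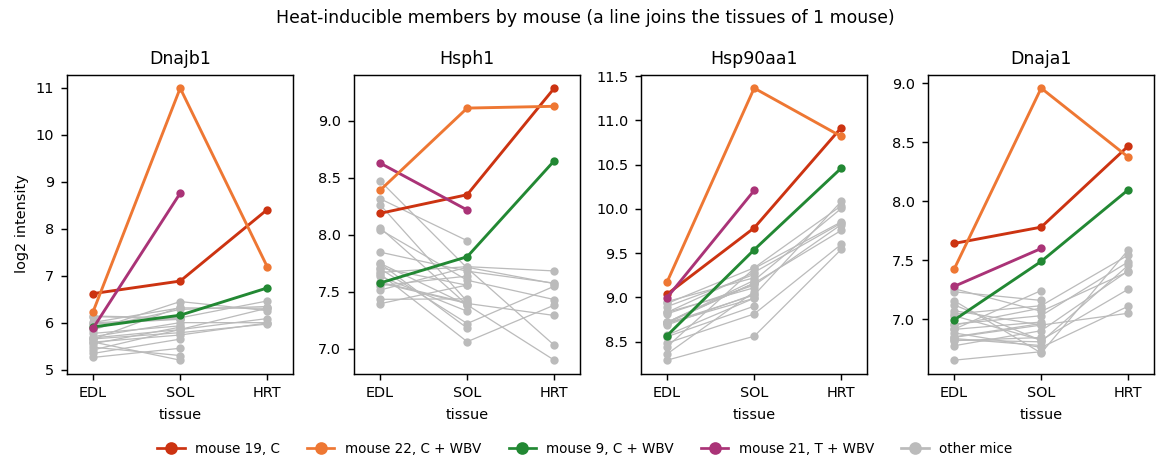
Levels (log2 intensity, y axis) of the inducible members Dnajb1, Hsph1, Hsp90aa1 and Dnaja1 in EDL, SOL and HRT (x axis), a line joining the tissues of 1 mouse, with mice 19, 22, 9 and 21 coloured and the others grey. The coloured mice carry the extreme values, led by Dnajb1 at 10.99 in the SOL of mouse 22 and 8.41 in the heart of mouse 19.

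Deviations of a mouse from its group mean were set side by side between its tissues for each of the 65 members. Between EDL and SOL (23 mice) the median correlation of the members was 0.271, against 0.165 for all genes. Of the members 49 of 65 were above 0 (75.4%, against 71.4% of all genes). With 12 mice it was 0.188 (all genes 0.125) between EDL and heart and 0.218 (all genes 0.121) between SOL and heart. Permutation tests within groups were run on the members alone, with p-values adjusted over 65 relations. Between EDL and SOL, 4 members had an adjusted p under 0.05 by both measures, and none of the 4 was under the 0.01 used for calls. Dnaja1 had r = 0.740 and rho = 0.652 (permutation p = 0.00017 and 0.00087, adjusted 0.011 and 0.02), and r = 0.538 without the 2 farthest mice, 19 and 22. Hspa2 had r = 0.653 and rho = 0.671 (permutation test, adjusted 0.024 and 0.02). Hspa12b, an endothelial HSP70 relative, had 0.654 and 0.710 (adjusted 0.028 and 0.02), and Dnajc3 0.626 and 0.679 (adjusted 0.028 and 0.02). Without the 2 farthest mice r was 0.551, 0.668 and 0.643 for Hspa2, Hspa12b and Dnajc3. For these members a mouse high in EDL for its group tended to be high in SOL. Dnajb1 had r = 0.561 and rho = 0.486 between EDL and SOL (permutation test, adjusted 0.034 and 0.11), which dropped to r = 0.297 without mice 19 and 22 and thus rests on them. Between EDL and heart Dnajb1 had r = 0.958 and rho = 0.958 over 12 mice (permutation test, adjusted 0.17 and 0.16).

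Partners of the chaperones were counted from 4 lists, to be read beside the shares of all genes that rose and fell in T against C (10.7% and 11.6% in EDL, 5.06% and 8.66% in SOL, 2.70% and 3.04% in heart). Of 26 heat shock factors and HSP70 and HSP90 co-chaperones, 5 rose and 5 fell in EDL, 1 rose and 3 fell in SOL, and heart had 1 of each. Fkbp5, an HSP90 co-chaperone and a standard glucocorticoid target, rose in all 3 tissues by 2.70, 2.67 and 2.66, and Smyd1, a muscle methyltransferase that works with HSP90 on myosin, fell by 0.94, 0.53 and 0.52. Hsf4, a heat shock factor, rose by 0.90 in EDL. Of 19 other ER chaperones and unfolded protein response genes, 6 rose and 1 fell in EDL, 3 rose and 2 fell in SOL, and 4 rose in heart. Xbp1 (0.48, 0.46 and 0.66) and Atf6 (0.45, 0.37 and 0.76), which activate ER chaperone genes, rose in all 3 tissues, beside the Dnajc3 values above and a Hspa5 that was not called. Serpinh1, the collagen chaperone, fell by 0.61 in EDL and 0.86 in SOL. Of 16 mitochondrial import and protease genes, 1 rose and 3 fell in EDL, and SOL and heart had 1 of each. Timm44, which anchors the import motor that Dnajc19 belongs to, fell in all 3 (by 0.34, 0.54 and 0.52). Of the 8 subunits of TRiC, the cytosolic folding chamber, 2 rose and 1 fell in EDL and 2 rose in SOL, with Cct4 (0.44 and 0.37) and Cct2 (0.42 and 0.33) higher in both and Cct5 lower in EDL (−0.36).

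Array quality and cell markers bear on all these values. Array medians lay between 4.515 and 4.603, and the number of arrays limits the precision. The labelled tissues carried their markers: Myh4 ran from 12.4 to 13.0 in EDL and at most 10.8 in SOL, Tnnt1 from 11.8 to 12.4 in SOL and at most 8.96 in EDL, and Tnni3 from 12.5 to 12.8 in heart and at most 5.03 in muscle. Neutrophil markers were higher in T, with 3 of 5 called in each tissue and summed levels from 5.66 to 6.11 in C and from 6.20 to 8.41 in T of EDL, from 5.75 to 6.04 and from 6.55 to 7.67 in SOL, and from 5.76 to 6.37 and from 7.47 to 8.12 in heart. Of 6 macrophage markers 2, 0 and 3 were higher in EDL, SOL and heart. Of 6 fibroblast markers 3 were lower in EDL, 4 lower in SOL and 3 higher in heart. Fast fibre markers were lower for 3 of 6 in EDL and 1 in SOL, and no adipocyte marker was called. In heart, the summed level of 3 erythroid markers ran from 8.69 to 9.67 in C, from 6.46 to 8.50 in T and from 9.34 to 10.37 in T + WBV, none of them called in T against C. Summed Schwann cell markers ran from 9.59 to 9.68 in C and from 9.99 to 10.22 in T hearts (1 of 3 called higher), and summed heart muscle markers from 14.61 to 14.73 and from 14.39 to 14.60 (0 of 5 called), without overlap. Their part in the changes of the members was not tested.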

How the data were processed

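RNA of each tissue was hybridised to GeneChip Mouse Gene 1.1 ST arrays (58 arrays: 23 EDL, 23 SOL and 12 HRT). The authors deposited log2 values per probe set after robust multiarray normalisation (RMA), a step that quantile-normalises the arrays, with no version in the sources used here. The table holds 35556 probe sets of the array maker's annotation, of which 21218 carry 1 symbol, 1881 several and 12457 none. Values were averaged over the single-symbol probe sets of each gene, giving 18820 genes. No further normalisation or filter was applied.

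Tests used limma 3.58.1 in R 4.3.3: per tissue, a model of 4 group means with moderated variances that follow the mean level, Benjamini-Hochberg adjustment over all genes and a threshold of 0.01. Comparisons between tissues used all 58 arrays with the mouse as a random block (correlation 0.137). The model was tested on simulated data with known changes in T, 100 genes for each size of change. Of changes of 0.5 it called 48% in EDL, 36% in SOL and 18% in heart, and of changes of 1 it called 99%, 84% and 82%. A change of 0.5 could thus often go uncalled, most of all in heart. Replicates are separate mice, so p-values measure the spread between animals.

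The members, lists and tests were chosen with earlier results of these data known. Members given with values were those called in T against C in at least 2 tissues, the 6 of widest change in each tissue, the 2 of highest level in each class, the smallest p of each training comparison, and those that differ between tissues (up to 6 for each pair). Outside the members, up to 3 called genes of a list are named for a tissue. Replicate numbers were not taken to pair mice. Alternatives covered the variance model, the samples fitted, further scaling, probe set summaries, a level filter, the threshold, a replicate block, array suffix and leaving out each array. Leaving out mice 19 and 22, and leaving out dim probe sets, were added after seeing the data. Promoter windows and gene coordinates are RefSeq's for GRCm38.p6.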

Additional observations from a re-analysis of the deposited data

Results flagged for a closer look

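The tumour effect differed between tissues for 3 members by the test of the difference. For Hspb7 the SOL effect minus the EDL effect was −0.63 and the heart effect minus the EDL effect −0.87. For Hspb6 heart minus EDL was −0.46 and heart minus SOL −0.38, and for Dnajc19 heart minus EDL was 0.68. The Dnajc19 call was at the edge of the threshold (limma adjusted p = 0.0094) and was lost in most alternatives.

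In the muscles, 41 members were examined in groups of 5 or 6 arrays. Hearts, with 3 arrays a group, were not examined. Chance gives about 1 in 20 for a single group, but the members share arrays and were chosen with these data known, so that rate is no measure here. Single arrays stood far from their group in 36 of 328 groups (11.0%). Of these, 9 belong to mouse 22, C + WBV replicate 3 of the muscles: Dnaja1 (7.42) and Hsph1 (8.39) in EDL, and Dnaja1 (8.96), Dnaja4 (10.20), Dnajb1 (10.99), Hsp90aa1 (11.37), Hspb1 (8.80), Hspe1 (10.44) and Hsph1 (9.11) in SOL, all at the high end. Mouse 21, T + WBV replicate 5, was high in SOL for Dnajb1 (8.75), Hsp90aa1 (10.21) and Hspa8 (11.64), and mouse 19, C replicate 3, was high in EDL for Hsph1 (8.19).

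T replicate 3 stood apart in EDL for Dnaja2 (9.43), Dnajc11 (7.45), Dnajc4 (7.98) and Dnajc5b (3.40), and T + WBV replicate 2 in SOL for Hspb1 (7.49), Hspb7 (12.24) and Dnajb6 (8.48). Dnaja2, Dnajc11 and Dnajc4 of T replicate 3 and Hspb1 and Hspb7 of T + WBV replicate 2 lay at the end of their group nearest to the controls. In EDL the C + WBV arrays that stood apart were replicate 6 for Dnajb4 (7.56) and Hspa9 (10.78), replicate 4 for Dnajc19 (8.21) and Dnajc28 (7.76), replicate 5 for Dnajc21 (9.40), and replicate 2 for Hspa13 (6.03) and Hspa2 (4.98). C replicate 6 stood apart for Hspb3 (8.26).

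In SOL the remaining arrays were C replicate 2 (9.38) and C + WBV replicate 2 (9.48) for Dnaja2, T replicate 1 for Dnaja4 (8.44), C replicate 6 for Dnajc12 (6.22), C replicate 5 for Dnajc2 (6.15), T replicate 2 for Dnajc25 (7.31), C + WBV replicate 1 for Dnajc5b (3.28) and C replicate 4 for Hspb8 (10.07).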

How the results depend on the processing

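Of the alternatives run on single members, 4402 kept the direction and side of the threshold, 317 lost a call, 62 gained one and 2 changed sign. Both sign changes were Dnajb1 in T against C of heart, at 0.19 without HRT C replicate 2 and 0.19 without mice 19 and 22, against −0.56, and leaving out 1 heart gave −1.02 to 0.19. Counts of members called stayed within 1.5 times in 642 alternatives and moved further in 111.

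For T against C, 13 members called in EDL kept their call in every alternative run, and Dnaja2, Dnajb6 and Dnajc13 lost it in some. Leaving out 1 array gave 14 to 21 members in EDL (16 with all), 1 to 12 in SOL (9) and 1 to 10 in heart (4). The SOL count was 1 without T replicate 2, 4 without T replicate 5 or 6 or C replicate 3 or 5, and 5 without C replicate 1, 2 or 6. The heart count was 1 without C replicate 1, 2 or 3 or T replicate 2 or 3, 7 without T + WBV replicate 3 and 10 without T + WBV replicate 2. The SOL count was also 4 with the replicate number as a block, 19 at an adjusted p under 0.05 and 15 with all arrays in 1 fit. In heart it was 2 with 1 prior variance, 10 with C and T alone, 12 at an adjusted p under 0.05, 1 without mice 19 and 22, and 2 with all arrays in 1 fit.

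For T + WBV against C + WBV, leaving out 1 array gave 6 to 12 members in EDL (10 with all), 0 to 6 in SOL (0) and 0 to 11 in heart (1). In SOL the count was 1 with an intensity-based moderated t, a second quantile normalisation or single probe sets, 2 with genes above the median level or without mice 19 and 22, 5 with all arrays in 1 fit and 7 at an adjusted p under 0.05. In heart it was 0 with the compared groups alone, single probe sets, the replicate block or without mice 19 and 22, and 7 at an adjusted p under 0.05. For T + WBV against C, leaving out 1 array gave 4 to 10 in EDL (10 with all), 0 to 6 in SOL (1) and 0 to 10 in heart (1), and EDL gave 6 without mice 19 and 22. In SOL it gave 0 with 1 prior variance, the compared groups alone, centred arrays, single probe sets, the replicate block, the array suffix or without mice 19 and 22, 4 with genes above the median level, 5 with all arrays in 1 fit and 7 at an adjusted p under 0.05. In heart it gave 0 with the compared groups alone, centred arrays, single probe sets, the replicate block or without mice 19 and 22, 2 with all arrays in 1 fit and 5 at an adjusted p under 0.05. The cause of these shifts was not tested.

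Training comparisons and the interaction gave 0 members in every leave-one-out fit. Differences between tissues, leaving out 1 replicate, held 26 to 37 members for heart against EDL in C, 20 to 29 for heart against SOL and 11 to 17 for SOL against EDL. Tumour effects that differ gave 1 to 4 members for SOL minus EDL, 2 to 6 for heart minus EDL and 1 to 2 for heart minus SOL, and 3, 8 and 2 at an adjusted p under 0.05. Same-numbered mice of T and C deviated together by no more than r = 0.14 in any tissue. The highest values elsewhere were 0.40 for C + WBV against C in SOL (over 0.1 in 3 of 6 pairs, 4 of 6 best with their own number) and 0.23 for T + WBV against T in EDL (over 0.1 in 2 of 5 pairs), and in no comparison were all pairs over 0.1, so no pairing was assumed. Beyond the counts above, the block changed no count by over 1.5 times. Heart had only 3 arrays a group. Hspb6 lay near the top of the table, and whether such a level limits a rise was not tested.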
